A study of Mus musculus with 10 samples.

Results

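The regions described here are the H3K27me3 islands on mouse chromosomes 6 and 19 in MC3T3 cells, a calvarial pre-osteoblast line. They are all rows of both deposited island lists that lie on chromosome 6 or 19. The vehicle list held 4155 islands on chromosome 6 and 1895 on chromosome 19, together 6050 of its 34498. The GSK126 list held 3505 and 1598, together 5103 of 24947, so that 11153 of the 59445 islands in both lists are members. Both chromosomes were chosen by the share of their length under islands, the largest among the 19 autosomes. The values that bear on this choice are therefore given as a description, without a test.

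The vehicle and GSK126 groups came from the same line, kept in osteogenic medium (ascorbic acid plus beta glycerol phosphate), and no genetic change is named in the labels. GSK126 was given at 5 µM with the first medium change and again 3 days later, and vehicle or compound was withdrawn on day 6. H3K27me3 ChIP and input DNA were taken 24 hours after the first dose, as 1 ChIP and 1 input library per treatment, and RNA on days 3, 6 and 10, as 1 library per treatment and day. No group has a replicate, and MC3T3 is a single line, so the values describe these 4 chromatin and 6 RNA libraries.

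EZH2 is the catalytic subunit of Polycomb repressive complex 2 (PRC2), which trimethylates lysine 27 of histone H3 (H3K27me3), and GSK126 inhibits its methyltransferase activity. The mark lies over silent developmental genes, often as broad domains. SICER, the program that made the lists, joins neighbouring windows of raised ChIP reads into such domains, called islands. The input library is sheared chromatin sequenced without the antibody, so its reads per kilobase (kb) give the local yield of DNA reads where no enrichment was made.

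Gene totals were 97291878 to 111537936 counts per RNA library. The osteoblast markers Runx2, Alpl, Col1a1, Col1a2, Sp7, Bglap, Ibsp and Spp1 were counted in all 6 libraries, from 80 counts of Bglap in vehicle on day 3 to 3697648 of Col1a2 with GSK126 on day 6. Of the 10 markers of other cells, Myod1 was at 0 throughout, and Adipoq, Plin1, Cdh5, Pecam1, Ptprc and Rbfox3 had 0 to 24 counts per library. Cd68 had 82 to 198, Des 242 to 454, and Tubb3, a neuronal tubulin, 670 to 10404. Tubb3 and Des counts were higher with GSK126 on each day, and their part in the results below was not tested.

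The 6 promoters printed next are shown because the results below turn on their genes. Each sequence is the 250 bases before the RefSeq gene start on build GRCm38.p6, 5′ to 3′ on the gene's own strand, with CG dinucleotides in capitals. Nkx2-3, a homeobox gene, lay under islands in both lists. Hoxa13 and Hoxa10 are homeobox genes, the former in a gap within a run of islands and the latter outside it. Zfp467 and Dock8 were under vehicle islands and rose with GSK126, and Col1a2, which encodes a chain of type I collagen, had no island and a very high RNA level.
Nkx2-3, chr19:43612075-43612324, plus strand: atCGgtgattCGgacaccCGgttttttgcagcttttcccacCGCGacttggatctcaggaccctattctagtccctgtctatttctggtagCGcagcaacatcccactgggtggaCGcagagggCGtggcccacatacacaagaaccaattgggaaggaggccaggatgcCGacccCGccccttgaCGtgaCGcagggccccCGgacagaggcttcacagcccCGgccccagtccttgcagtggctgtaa
Hoxa13, chr6:52260881-52261130, minus strand: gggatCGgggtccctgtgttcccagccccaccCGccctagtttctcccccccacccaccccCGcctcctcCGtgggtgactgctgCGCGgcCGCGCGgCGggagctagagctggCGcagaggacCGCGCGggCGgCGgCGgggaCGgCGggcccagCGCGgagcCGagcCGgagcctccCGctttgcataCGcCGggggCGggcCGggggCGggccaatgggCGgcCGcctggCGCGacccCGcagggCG
Hoxa10, chr6:52240855-52241104, minus strand: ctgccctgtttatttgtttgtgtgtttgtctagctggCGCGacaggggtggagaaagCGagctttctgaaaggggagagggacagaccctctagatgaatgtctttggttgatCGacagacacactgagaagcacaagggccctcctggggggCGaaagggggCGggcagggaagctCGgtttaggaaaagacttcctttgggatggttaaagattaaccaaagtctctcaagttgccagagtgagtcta
Zfp467, chr6:48445091-48445340, minus strand: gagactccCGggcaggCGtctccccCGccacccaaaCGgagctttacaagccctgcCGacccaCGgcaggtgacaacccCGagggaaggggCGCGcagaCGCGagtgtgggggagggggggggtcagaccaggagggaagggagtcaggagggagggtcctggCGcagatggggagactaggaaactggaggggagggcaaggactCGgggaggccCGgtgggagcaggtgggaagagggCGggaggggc
Dock8, chr19:24999279-24999528, plus strand: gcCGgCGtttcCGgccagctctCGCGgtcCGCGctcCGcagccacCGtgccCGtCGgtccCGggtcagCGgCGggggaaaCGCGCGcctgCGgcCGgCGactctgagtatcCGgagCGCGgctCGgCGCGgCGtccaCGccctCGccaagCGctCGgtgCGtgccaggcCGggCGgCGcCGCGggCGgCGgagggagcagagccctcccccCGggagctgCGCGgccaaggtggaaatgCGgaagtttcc
Col1a2, chr6:4505368-4505617, plus strand: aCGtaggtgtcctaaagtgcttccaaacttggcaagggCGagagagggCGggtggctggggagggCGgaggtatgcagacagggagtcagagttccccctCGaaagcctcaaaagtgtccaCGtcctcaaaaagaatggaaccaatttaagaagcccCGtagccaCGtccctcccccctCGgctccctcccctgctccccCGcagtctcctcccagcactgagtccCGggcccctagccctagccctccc

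The Nkx2-3 window held 14 CG dinucleotides, and all 250 bases lay in an island in both lists. The windows of Zfp467, with 15, and Dock8, with 43, lay wholly in vehicle islands and had 0 bases in GSK126 islands. The Hoxa13 window, with 35, had 130 bases in a vehicle island and 0 in a GSK126 island. The windows of Hoxa10, the first of 2 listed for that gene, with 7, and of Col1a2, with 11, had none in either list. Over all 31396 such windows on autosomes, 92.4% held a CG, the median was 6, and 38.3% held 10 or more (CG reads the same on both strands, and copies do not overlap). Of the 2909 windows on chromosomes 6 and 19, taken with the 50 bases after the start, 481 (16.5%) touched a vehicle island. Those 481 had a median of 4 CG dinucleotides, and 20.0% held 10 or more, against a median of 7 and 41.5% for the windows outside islands. On the other 17 autosomes 6.83% of windows touched a vehicle island, with the same median of 4.

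In vehicle, islands covered 14.0% of chromosome 6 and 16.3% of chromosome 19. Chromosome 17 was the nearest autosome outside the choice, with 11.5%, and chromosome 14 was lowest, with 0.975%. With GSK126 the shares were 18.0% on chromosome 6, 20.4% on chromosome 19, 14.4% on chromosome 17 and 0.748% on chromosome 14. Over all listed islands the GSK126 list thus had fewer islands than the vehicle list on both chromosomes and covered more of each. Among islands with a fold of at least 2 the direction turned: the vehicle list covered 9.62% of chromosome 6 and 10.7% of chromosome 19, and the GSK126 list 6.12% and 6.41%. With GSK126 chromosome 6 then came behind chromosome 17, at 6.33%. The islands were longer: the median was 3.8 kb in vehicle and 6.0 kb with GSK126 on chromosome 6, and 3.6 and 6.0 kb on chromosome 19. Islands of 10 kb or more numbered 385 on chromosome 6 and 199 on chromosome 19 in vehicle, and 711 and 356 with GSK126. The read number per island went the same way, with medians of 49 ChIP reads in vehicle and 85 with GSK126 on chromosome 6, and 51 and 88 on chromosome 19. The smallest ChIP read number of an island on either chromosome was 18 in vehicle and 35 with GSK126, so the lists differ in their smallest islands.

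Input reads were dense in these islands. The median was 11.1 input reads per kb on chromosome 6 and 11.5 on chromosome 19 in vehicle, ranks 2 and 1 of 19 autosomes. The other 17 autosomes ran from 6.25 on chromosome 14 to 10.8 on chromosome 17, and their pooled islands had a median of 8.93. With GSK126 the medians were 13.9 and 14.3, and chromosome 4, with 14.4, was above both. By summed input reads over summed length chromosome 9 had the densest islands in both lists, with 15.6 reads per kb in vehicle and 22 with GSK126, so the order rests on the median island. The middle 50% of islands spanned 9.5 to 12.5 input reads per kb on chromosome 6 and 10.0 to 12.9 on chromosome 19 in vehicle, against 7.31 to 10.6 on the other 17 autosomes, so the ranges overlap. As a set, islands of chromosomes 6 and 19 had a median 1.26 times that of the other autosomes in vehicle and 1.23 times with GSK126. ChIP reads per kb differed less, with a median of 14.2 on chromosomes 6 and 19 and 13.4 on the others in vehicle, and 15.2 and 14.3 with GSK126.

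The ratio of ChIP to input reads was low on both chromosomes. Summed over islands it was 1.33 on chromosome 6 (95% exact binomial interval 1.32 to 1.33) and 1.30 on chromosome 19 (1.29 to 1.31) in vehicle, against 1.44 on the other 17 autosomes together (1.44 to 1.44). With GSK126 it was 1.11 on chromosome 6 and 1.1 on chromosome 19, against 1.21. These intervals cover counting error of 1 pair of libraries only. The low sum was not particular to these chromosomes. In vehicle chromosomes 9 (1.26) and 17 (1.28) were below both, and chromosome 11 (1.32) was below chromosome 6. With GSK126 chromosome 4 (1.07) was below both. The median ratio over islands was 1.29 and 1.27 in vehicle, ranks 18 and 19 of 19, and 1.1 and 1.08 with GSK126, ranks 17 and 18 with chromosome 4 below them at 1.07. The authors' fold enrichment is this ratio times 1.68 in the vehicle list and times 1.66 in the GSK126 list. A fold of 2 or more was listed for 62.9% of vehicle islands on chromosomes 6 and 19 and for 81.3% of those on the other autosomes, and for 31.0% and 59.5% with GSK126. More reads in the input than in the ChIP library were found in 841 vehicle islands and 1638 GSK126 islands of chromosomes 6 and 19. The lists also hold islands that the authors' own adjusted p-value leaves above 0.05, 96 and 87 on these chromosomes.

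**Figure D1:**
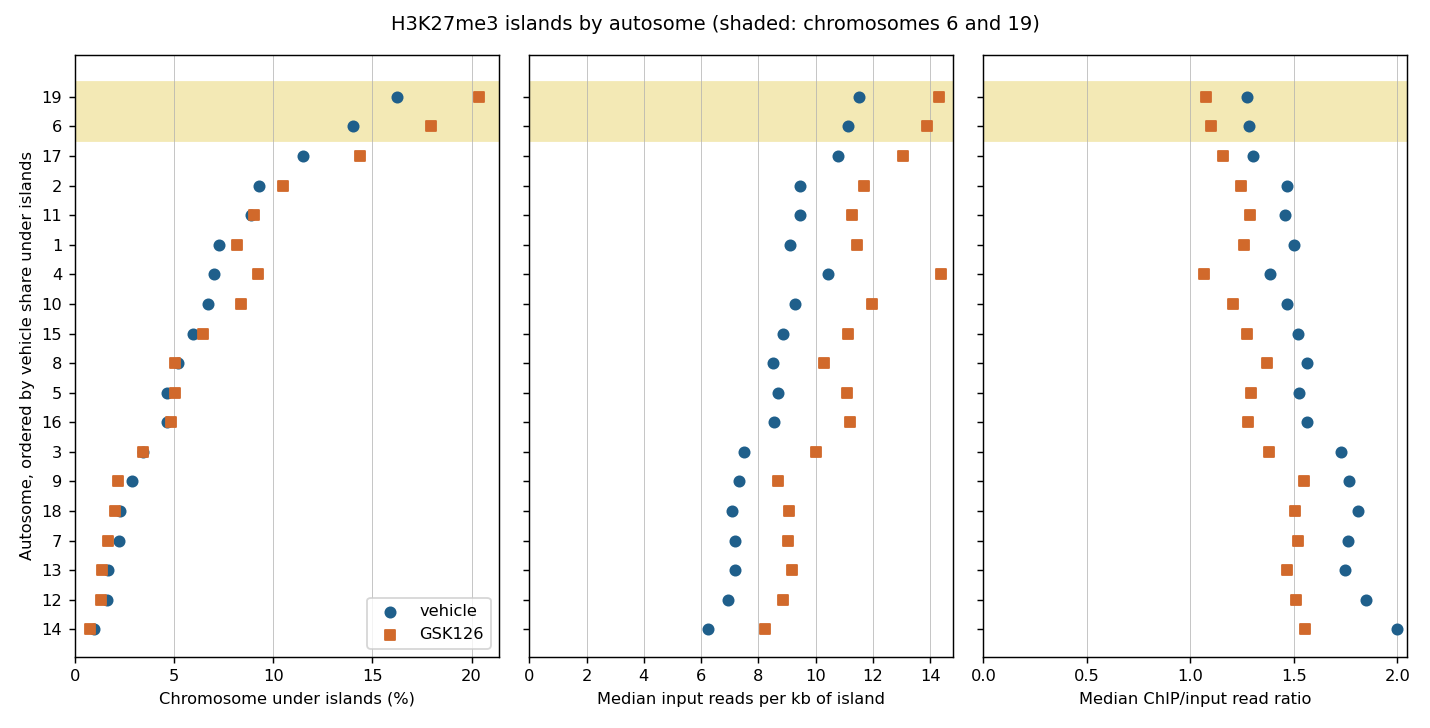
Each row is an autosome, ordered by its vehicle share under islands, with vehicle as circles and GSK126 as squares; the panels give the percent of the chromosome under islands, the median input reads per kb of island and the median ratio of ChIP to input reads. Chromosomes 19 and 6 (shaded) have the largest shares (16.3% and 14.0% in vehicle), the densest input in vehicle and, in vehicle, the lowest ratios.

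Across the 19 autosomes the share under islands went with the input density at islands (Pearson r = 0.95 in vehicle and 0.91 with GSK126). Without chromosomes 6 and 19 the same values over 17 autosomes were 0.94 and 0.88, so the relation was also present without them. The input density went against the median ratio (r = -0.98 and -0.99). Gene number per megabase (Mb) followed the share less closely (r = 0.42 and 0.37), and chromosome 6, with 8.26 genes per Mb, ranked 12 of 19 while chromosome 19, with 12.4, ranked 3. All points of one list come from the same pair of libraries, and input reads enter both the density and the ratio, so these are descriptions. Input reads outside islands were not analysed here. Chromosome copy number was not measured here, and its part in these values was not tested.

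Most vehicle islands of both chromosomes were met by a GSK126 island. At least 1 base was shared by 4767 of 6050 vehicle islands (78.8%), namely 3275 on chromosome 6 and 1492 on chromosome 19. The share was 72.8% on chromosome 17 and 56.6% on the other 17 autosomes together, in a list that covers less of those chromosomes. At least 50% of the island was covered in 4275. From the other side, 73.6% of GSK126 islands on chromosomes 6 and 19 shared a base with a vehicle island. By length, 73.0% of the vehicle island bases and 57.4% of the GSK126 island bases were common. The 1283 vehicle islands without a GSK126 island were shorter, with a median of 3.0 kb against 4.0 kb, and had a median ratio of 1.21 against 1.30.

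Along each chromosome the islands were uneven, as counted in full 5 Mb bins. On chromosome 6 the share ran from 0.116% at 75 to 80 Mb, where only 2 vehicle islands lay, to 28.6% at 85 to 90 Mb, with a median of 14.8% over 29 bins. The bin at 60 to 65 Mb was also sparse, with 1.22% under islands. Both sparse bins held few genes, 11 and 7, and none with a mean CPM (counts scaled to library size) of 1 or more. The 85 to 90 Mb bin held 91 genes, of which 47 reached that level. With GSK126 the sparse bins had 1.04% and 4.37%, and the highest bin was 90 to 95 Mb, with 31.9%.

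On chromosome 19 the vehicle share ran from 5.27% in the first 5 Mb to 36.6% at 40 to 45 Mb, a bin of 79 genes that holds Nkx2-3 and Pax2. GSK126 had the same lowest and highest bins, at 5.43% and 39.2%. Over full bins, Pearson r of the vehicle share with the percent of genes at 1 CPM or more was 0.46 on chromosome 6. On chromosome 19 it had the other sign, at -0.32, and with GSK126 the values were 0.42 and -0.36. The input density varied less than the share. Over bins with 20 or more vehicle islands it was 8.40 to 12.8 reads per kb on chromosome 6 (27 bins) and 10.7 to 12.5 on chromosome 19 (12 bins). With GSK126 the densities were 13.2 to 14.8 and 13.6 to 15.3. Input was thus dense in each of these bins with GSK126.

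**Figure D2:**
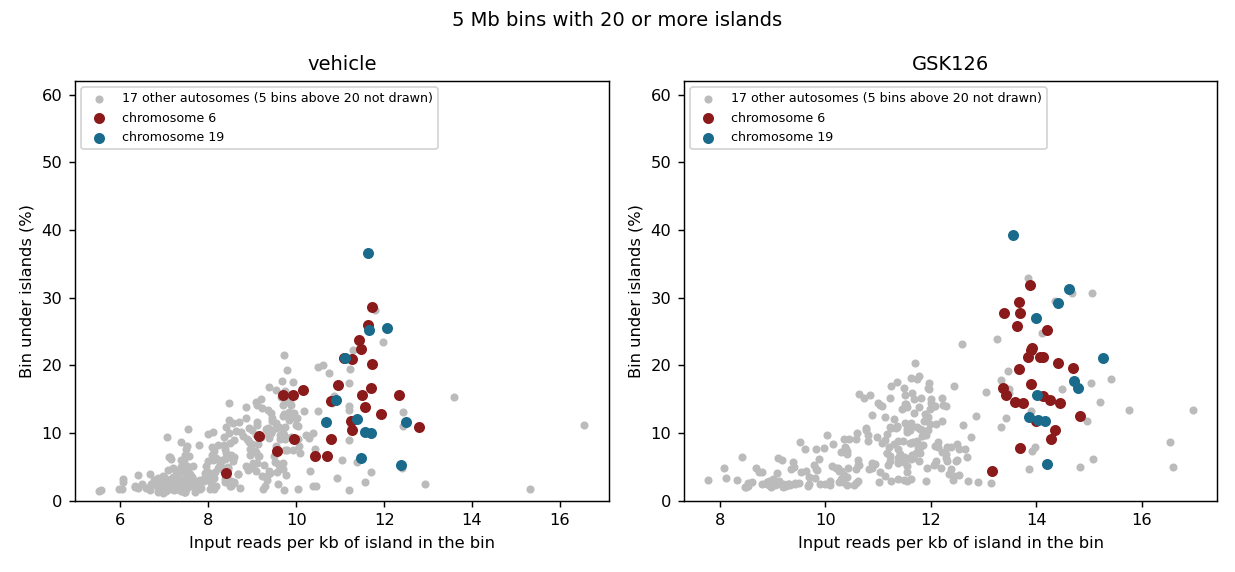
Each point is a full 5 Mb bin with 20 or more islands, with input reads per kb of island on the horizontal axis and the percent of the bin under islands on the vertical axis; left vehicle, right GSK126, and the legend says how many grey bins with an input density above 20 are not drawn. Bins of chromosome 6 (red) and 19 (blue) lie to the right of most bins of the other autosomes (grey), with the 40 to 45 Mb bin of chromosome 19 on top at 36.6% in vehicle.

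The longest vehicle island of chromosome 6, chr6:120681401-120750000, was 68.6 kb long and lay over Cecr2, which encodes a bromodomain protein of chromatin remodelling complexes. It held 1294 ChIP and 778 input reads, a ratio of 1.66 (95% exact binomial interval 1.52 to 1.82). With GSK126 a 49.2 kb island of 926 ChIP and 777 input reads, ratio 1.19 (1.08 to 1.31), covered much of it, and 96.5% of the vehicle island was covered by GSK126 islands in all. Next came a 40.8 kb island over Vax2, a homeobox gene of the ventral eye, its antisense transcripts and Cd207, with a ratio of 1.58. A 37.6 kb island with a ratio of 1.72 began 7.66 kb from Col1a2 and touched no gene.

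On chromosome 19 the longest vehicle island was 45.2 kb over Lgi1, which encodes a secreted neuronal protein, with 775 ChIP and 517 input reads and a ratio of 1.5. A 43.2 kb island, chr19:40759001-40802200, touched no gene and lay wholly inside the longest GSK126 island of the chromosome, 71.4 kb with a ratio of 1.35. Next in length, an island of 41.6 kb with a ratio of 1.67 lay over Frat1, which encodes an inhibitor of GSK3 in Wnt signalling. With GSK126 a 45.8 kb island over Nkx2-3 held 872 ChIP and 614 input reads, a ratio of 1.42 (1.28 to 1.58). The longest GSK126 island of chromosome 6, 70.2 kb over Gm765, had a ratio of 1.38 (1.27 to 1.5). The 5 longest islands of each chromosome had 10.8 to 13.6 input reads per kb in vehicle and 13.1 to 15.8 with GSK126, around the medians of all islands.

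Islands were also ranked by ratio, which by its construction favours thin input. Among islands with 50 or more ChIP reads, the highest on chromosome 6 in vehicle was a 5.4 kb island 18.3 kb from Peg10, an imprinted gene derived from a retrotransposon, with 107 ChIP and 23 input reads (ratio 4.65, interval 2.94 to 7.65). On chromosome 19 a 4 kb island over Gm4952 had 66 and 15 reads (4.4, 2.48 to 8.30). Their input densities, 4.26 and 3.75 reads per kb, were under the medians of 11.1 and 11.5 for their chromosomes. With GSK126 the highest was 3.05 on chromosome 6 and 2.68 on chromosome 19. Second on chromosome 6 with GSK126 was a 2.4 kb island inside Zfp467, with 56 ChIP and 19 input reads (2.95, 1.72 to 5.25).

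Genes under islands were mostly genes with little RNA. On chromosome 6, 37 of 563 genes with a mean CPM of 1 or more had a vehicle island over their span (6.57%), against 328 of 673 genes below 1 (48.7%). On chromosome 19 the numbers were 33 of 429 (7.69%) and 168 of 331 (50.8%). The other 17 autosomes had 4.30% and 29.7%, and chromosome 17 had 8.06% and 44.6%. Low genes were thus under islands more often on each of these sets. In bulk RNA, fewer cells with a transcript and less RNA per cell cannot be told apart. In all, 566 of 1996 genes lay under vehicle islands and 605 under GSK126 islands. The median RNA level was 0.0079 RPKM (reads per kb of gene, scaled to library size) for genes under a vehicle island and 4.69 for the rest. By length, 32.7% of the vehicle island bases of both chromosomes lay in genes, which fill 41.1% of these chromosomes.

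**Figure D3:**
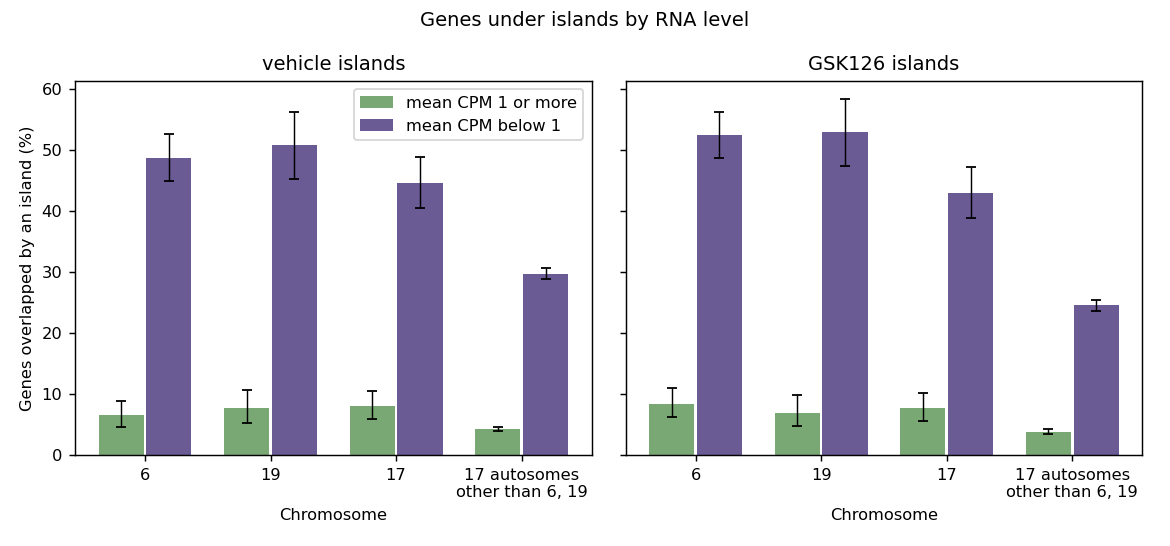
Bars give the percent of genes with an island over their span, for genes with a mean CPM of 1 or more (green) and below 1 (purple), with 95% exact binomial intervals as error bars; left vehicle islands, right GSK126 islands. On chromosomes 6 and 19 the share in vehicle was 6.57% and 7.69% of the higher group and 48.7% and 50.8% of the lower group.

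Few expressed genes were covered over most of their span. Of the 992 genes with a mean CPM of 1 or more, 9 had at least 50% of their span in vehicle islands. They were Ldhb, Gimap9, Fam115c, Far2 and Zfp467 on chromosome 6 and Actn3, Ifit1, Ppp1r3c and Tmem20 on chromosome 19. The highest level among them was that of Ldhb, a lactate dehydrogenase subunit, with a mean of 1.75 RPKM and 75.1% of its span covered. Gimap9, a GTPase of the immunity-associated family, had 1.63 RPKM and was covered wholly in vehicle and at 0% with GSK126. Its fitted log2 difference was 0.08 (SE 0.15), and its edgeR quasi-likelihood adjusted p was 0.829.

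Of 31 listed developmental regulators of chromosome 6, 30 were measured on the chromosome, and 6 lay under vehicle islands: Emx1, Vax2 and Foxp2, transcription factors of the nervous system, and the Wnt ligands Wnt2, Wnt7a and Wnt16. All 6 were among the 14 members below 1 CPM, a share near the 48.7% of all low genes of the chromosome, with means of 0 (Wnt2) to 0.0945 CPM (Vax2). Their spans were covered at 6.32% (Foxp2) to 89.1% (Emx1). None of the 16 list members at 1 CPM or more had a vehicle island, among them Dlx5, a homeobox activator of osteoblast genes, at 34 CPM. Only 6.57% of all such genes of the chromosome had one. With GSK126 Evx1, Sox5 and Wnt5b were under islands too. Of 20 list members tested by edgeR's quasi-likelihood method 0 passed (median log2 difference -0.12, against -0.00076 over all genes). Over all genes 1.01% rose and 0.272% fell, so a count of 0 among so few shows nothing particular to a list. Dlx5 had 13.0, 12.5 and 15.7 RPKM in vehicle on days 3, 6 and 10 and 17.7, 23.4 and 33.2 with GSK126. The 3 GSK126 libraries were above the 3 vehicle libraries, with a fitted log2 difference of 0.83 (SE 0.14, edgeR adjusted p 0.0653).

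The Hoxa cluster, whose genes set position along the body axis, had islands only beyond Hoxa11. Hoxa10, Hoxa11 and Hoxa13 had no island over their spans in either list. Evx1 had none in vehicle and was covered wholly with GSK126. The islands began at chr6:52247801 in vehicle and chr6:52247601 with GSK126, between Hoxa11 and Hoxa13, and ran past Evx1. They were separate islands, and Hoxa13 lay in a gap between them in both lists. Counted to 20 kb beyond Evx1, vehicle had 8 islands, 34.4 kb in all with 499 ChIP and 402 input reads (ratio 1.24), and GSK126 had 6, 55.8 kb with 813 and 738 reads (1.1). Hoxa10 had 5.11 RPKM on average over 6 libraries. Hoxa11 had 4 counts in 1 library and 0 in 5, Hoxa13 had 14 and 2 counts with GSK126 on days 6 and 10 and 0 in 4, and Evx1 had 4 counts in 1 library. The overlaps of the promoters printed above follow from the same island coordinates and are no separate evidence. The Hoxa13 window had 130 bases in a vehicle island and 0 in a GSK126 island, and the Hoxa10 window had 0 in either list.

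On chromosome 19, 14 of the 21 listed regulators lay under vehicle islands. They were the DM-domain factors Dmrt1, Dmrt2 and Dmrt3, the growth factor Fgf8, the forkhead genes Foxb2 and Foxd4, the GDNF receptor Gfra1, the homeobox genes Lbx1, Nkx2-3, Pitx3 and Tlx1, the zinc finger gene Ovol1, the paired-box gene Pax2, and Wnt8b. All 14 were among the 18 members below 1 CPM. Of all genes of the chromosome 26.4% had a vehicle island, and of those below 1 CPM 50.8%. The list was chosen with earlier results known, and the difference from these shares was not tested. Lbx1, Nkx2-3 and Foxd4 were covered wholly in both lists, with mean levels of 0.0197, 0.0126 and 0.0064 CPM. The 3 list members at 1 CPM or more, Tcf7l2, Emx2 and Hhex, had no vehicle island, and only 7.69% of all such genes of the chromosome had one. Tcf7l2, a transcription factor of Wnt signalling, had 38.8 CPM on average, and Hhex had 26.5% of its span in GSK126 islands. Of 9 tested 0 passed (median log2 difference 0.24), beside the 1.01% and 0.272% called over all genes.

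Tlx1 was the only regulator of chromosome 19 with a vehicle island and no GSK126 island over its span. On days 3, 6 and 10 the vehicle counts were 2, 4 and 12 and the GSK126 counts 14, 28 and 60, all low. The 3 libraries of each treatment did not overlap in count. The fitted log2 difference was 2.57 (SE 0.41), and the edgeR adjusted p was 0.0577.

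Of 30 listed stromal and bone-related genes 27 were located on these chromosomes. Vehicle islands lay over 6 of them, near the 28.4% of all genes of both chromosomes: Fgf23, the phosphate-regulating hormone of bone, the Wnt inhibitor Sfrp5, the retinol carrier Rbp4, the ectonucleotidase Entpd1, the guidance ligand Slit1 and the Hedgehog signal transducer Smo. The first 5 were below 1 CPM. Smo had 236 CPM on average, and its islands covered 6.96% of the span. Col1a2 was the most abundant member, with 4733, 5360 and 4630 RPKM in vehicle and 4251, 5684 and 5683 with GSK126, and the treatments overlapped. Mgp, an inhibitor of calcification, had 918, 521 and 675 RPKM in vehicle and 850, 364 and 354 with GSK126. Of 23 tested 0 passed (median log2 difference -0.05), beside the 1.01% and 0.272% called over all genes.

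Gene RNA levels were high on both chromosomes in every library. Over genes with a mean CPM of 1 or more, the median RPKM on chromosome 19 (429 genes) was 12.6, 11.9 and 11.4 in the vehicle libraries and 12.3, 11.5 and 11.5 with GSK126. On chromosome 6 (563 genes) it was 11.3, 10.8 and 11 in the vehicle libraries and 11.2, 10.9 and 10.5 with GSK126. On the other 17 autosomes together it was 8.54, 8.03 and 7.93 in vehicle and 8.46, 7.87 and 7.80 with GSK126. Both chromosomes were thus above the rest in 6 of 6 libraries, with treatments that overlapped. The difference in median log2(RPKM + 0.1) was 0.54 ± 0.015 (SD over 6 libraries) for chromosome 19, 1.46-fold, and 0.43 ± 0.028 for chromosome 6, 1.35-fold. They ranked 1 and 2 of 19 in all 6 libraries, ahead of chromosome 17 at 0.26 ± 0.024, and chromosome 14 was lowest at -0.31. The spread within a chromosome was wide, with the middle 50% of chromosome 19 genes at 5.01 to 26.4 RPKM in vehicle on day 3. The order depends on which genes are counted: over all genes with any count, chromosome 6 was below the rest by 0.28 and chromosome 19 above by 0.82.

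Among genes at 1 CPM or more with no vehicle island, the median of the mean RPKM was 12.1 on chromosome 6 and 13.2 on chromosome 19, against 8.69 on the other 17 autosomes. Genes under a vehicle island had 1.12, 1.01 and 1.05 RPKM on the same sets. The higher level of both chromosomes was thus found among island-free genes and not among the few expressed genes under islands. Over 19 autosomes the mean level difference went with the share under islands (r = 0.92 in vehicle and 0.91 with GSK126). It also went with the input density at islands (0.90 and 0.85). Without chromosomes 6 and 19, over 17 autosomes, r was 0.86 and 0.84 for the share and 0.83 and 0.77 for the input density. These values hold for genes at 1 CPM or more, and were not computed over all genes with a count. These points share the 6 RNA libraries and 1 pair of chromatin libraries per list, and the part of input yield in the result was not tested.

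**Figure D4:**
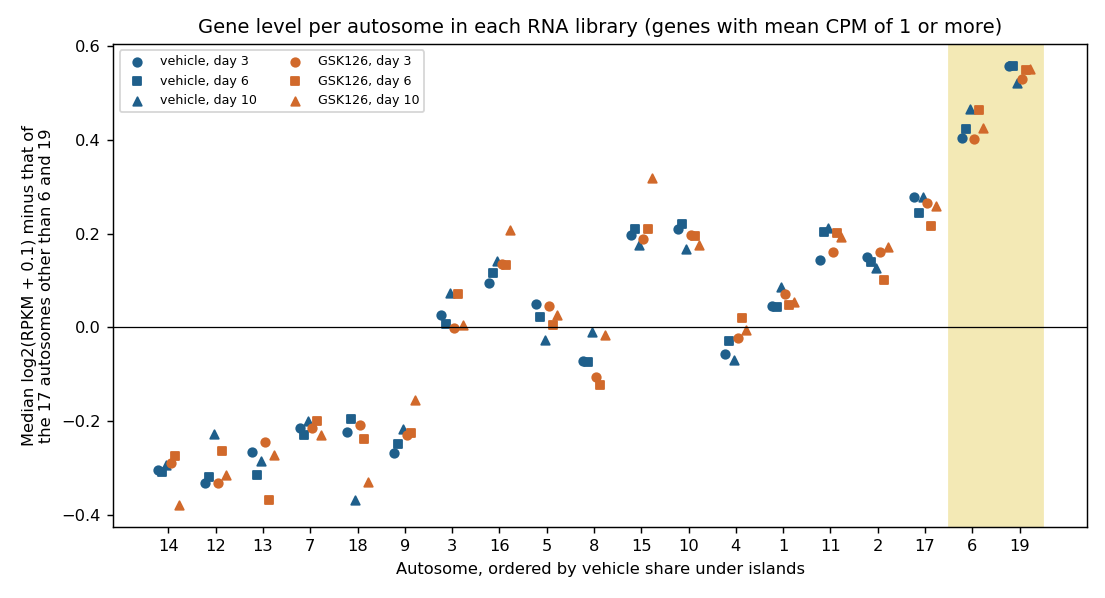
Each point is an RNA library; the vertical axis gives the median log2(RPKM + 0.1) of an autosome's genes with a mean CPM of 1 or more minus that of the 17 autosomes other than 6 and 19, and autosomes are ordered by vehicle share under islands. Chromosomes 6 and 19 (shaded) lie at 0.40 to 0.47 and 0.52 to 0.56 in 6 libraries, above all others.

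The response to GSK126 was tested with edgeR's quasi-likelihood method on all 14344 genes that passed a filter on low counts, with day as a term. Of 1226 tested genes on chromosomes 6 and 19, 12 rose and 2 fell at an adjusted p below 0.05. Over all genes 1.01% rose and 0.272% fell, so the 0.979% and 0.163% found here lie at or under the background. The median log2 difference of these genes was 0.03. DESeq2 called 75 higher and 52 lower on these chromosomes, beside 688 and 635 over all 14344 genes. Left without 1 day, the edgeR fit gave 18 higher and 10 lower without day 3, 0 and 1 without day 6, and 0 and 0 without day 10. Over all genes the same fits gave 202 and 106, 18 and 1, and 4 and 0.

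The genes that rose were then set against the islands. Of the 187 tested genes with a vehicle island, 9 rose (4.81%) and 0 fell. At an unadjusted edgeR p below 0.05, 45 were higher and 6 lower, beside 1414 and 1399 of 14344 over all genes. Of 1008 tested genes without an island in either list 3 rose (0.298%) and 2 fell (0.198%). On the other 17 autosomes 49 of 1119 genes under vehicle islands rose (4.38%) and 0 fell. At an unadjusted edgeR p below 0.05 it was 269 higher and 58 lower there. Of 11375 tested genes of those autosomes without an island, 73 rose (0.642%) and 36 fell (0.316%). The differences between these shares were not tested. By DESeq2 26 of the 187 and 46 of the 1008 were called higher, beside 688 of 14344 over all genes. By edgeR without day 3 it was 9 of 189 with a vehicle island and 9 of 1009 without any, beside 202 of 14340. Without day 6 or without day 10 it was none of either, beside 18 of 14475 and 4 of 14516 over all genes. The median log2 difference of the 187 was 0.17, against 0.02 for the 1008. Genes under islands had little RNA, with a median log2 CPM of -0.85 against 5.20, and counting error is larger there. Of 31 tested genes with a GSK126 island only, 0 rose or fell, with 4 higher and 0 lower at an unadjusted p below 0.05.

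By day, with 1 library pair and no test, 12 of the 70 genes under vehicle islands at 1 CPM or more were at least 2-fold higher on day 3 (1.67% over all genes), 15 on day 6 (3.23%) and 12 on day 10 (2.5%). At least 2-fold lower were 0 on day 3 (0.128%), 5 on day 6 (2.1%) and 4 on day 10 (2.15%). Their median log2 ratio was highest on day 3, at 0.36, then 0.10 on day 6 and 0.01 on day 10. On the other 17 autosomes, of 445 such genes 91, 84 and 64 were at least 2-fold higher on days 3, 6 and 10. At least 2-fold lower there were 0, 18 and 33, and the median log2 ratios were 0.24, 0.09 and -0.05. The difference between these sets was not tested. Of the 901 genes of chromosomes 6 and 19 at 1 CPM or more without an island, 4, 16 and 16 were 2-fold higher on these days. These 901 were not matched for RNA level. The compound was withdrawn on day 6.

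Of the 9 genes under islands that rose, Rasgrp2, Dock8, Hectd2 and Neurl1a lie on chromosome 19 and Zfp467, Tspan12, B4galnt3, Chn2 and Tbxas1 on chromosome 6. Rasgrp2, an exchange factor for the small GTPase Rap1, had vehicle counts of 30, 42 and 134 on days 3, 6 and 10 and GSK126 counts of 118, 618 and 728. All but the day 3 GSK126 library lay above every vehicle library. It rose by 2.82 on the log2 scale (SE 0.39, edgeR quasi-likelihood adjusted p 0.0466). Its span was covered at 0.109% in vehicle and 23.3% with GSK126.

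Dock8, an exchange factor for Cdc42 best known in lymphocytes, had vehicle counts of 474, 278 and 268 and GSK126 counts of 1180, 1400 and 1262. The treatments did not overlap, and it rose by 1.99 (SE 0.24, edgeR adjusted p 0.0330). Its vehicle island lay at the promoter printed above and over 1.02% of the span, and no GSK126 island touched it.

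Zfp467, a zinc finger factor linked to the choice between adipocyte and osteoblast, had vehicle counts of 82, 110 and 182 and GSK126 counts of 282, 306 and 488, again without overlap. It rose by 1.59 (SE 0.17, edgeR adjusted p 0.0291). Vehicle islands covered 57.0% of its span and GSK126 islands 33.2%, including the high-ratio island named above, and its promoter was in islands in vehicle only.

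Hectd2, a HECT-type ubiquitin ligase, had vehicle counts of 352, 448 and 474 and GSK126 counts of 1082, 1520 and 1090, and rose by 1.56 (SE 0.15, edgeR adjusted p 0.0251). Neurl1a, a ubiquitin ligase of the Neuralized family, had vehicle counts of 744, 654 and 776 and GSK126 counts of 1456, 2112 and 2390, and rose by 1.46 (SE 0.17, edgeR adjusted p 0.0327). Neither gene's treatments overlapped. Both kept islands with GSK126, over 4.81% of Hectd2 in each list and over 17.4% and 20.8% of Neurl1a.

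The other 4 had a mean log2 CPM below 1, outside the rule for naming, and were chosen after their values were seen. Tspan12, a tetraspanin of Norrin and Frizzled signalling, had vehicle counts of 2, 8 and 2 and GSK126 counts of 48, 112 and 38 (log2 difference 4.10, SE 0.40, edgeR adjusted p 0.0251). B4galnt3, a glycosyltransferase, had vehicle counts of 0, 16 and 40 and GSK126 counts of 22, 206 and 548 (3.90, SE 0.37, edgeR adjusted p 0.0251). Chn2, a GTPase-activating protein for Rac, had vehicle counts of 2, 42 and 74 and GSK126 counts of 72, 462 and 500 (3.38, SE 0.36, edgeR adjusted p 0.0290). In these 3 genes GSK126 was higher on each day, and over days only Tspan12 showed no overlap between treatments. Tbxas1, thromboxane A synthase, rose by 2.42 (SE 0.30, edgeR adjusted p 0.0367), with 14 to 36 counts in vehicle libraries and 48 to 216 in GSK126 libraries. All 4 also had islands with GSK126. Vehicle and GSK126 islands covered 48.0% and 60.3% of Tspan12, 40.4% and 47.6% of Chn2, and 16.3% and 20.2% of B4galnt3. For Tbxas1 the values were 3.38% and 3.02%.

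The 5 called genes without islands spanned both directions. Rcor2, a corepressor that partners the demethylase LSD1, had vehicle counts of 2802, 3950 and 4922 and GSK126 counts of 5060, 12870 and 11602, and rose by 1.30 (SE 0.17, edgeR adjusted p 0.0409). Dennd5b and Zfp862 on chromosome 6 rose by 0.56 and 0.52. Pdk4, a kinase that inhibits pyruvate dehydrogenase, had vehicle counts of 9350, 5280 and 6300 and GSK126 counts of 3834, 1572 and 2230, and fell by 1.47 (SE 0.10, edgeR adjusted p 0.0145). Cdc42ep2, a Cdc42 effector, had vehicle counts of 1680, 1152 and 1098 and GSK126 counts of 754, 374 and 264, and fell by 1.57 (SE 0.19, edgeR adjusted p 0.0338). These calls rest on 3 pairs of libraries: without day 6 only Pdk4 passed among the 14, and without day 10 none of the 14 passed (108 higher and 71 lower genes of these chromosomes at an unadjusted p below 0.05). With all 3 days it was 151 and 111 at that unadjusted edgeR p, beside 1414 and 1399 over all genes.

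**Figure D5:**
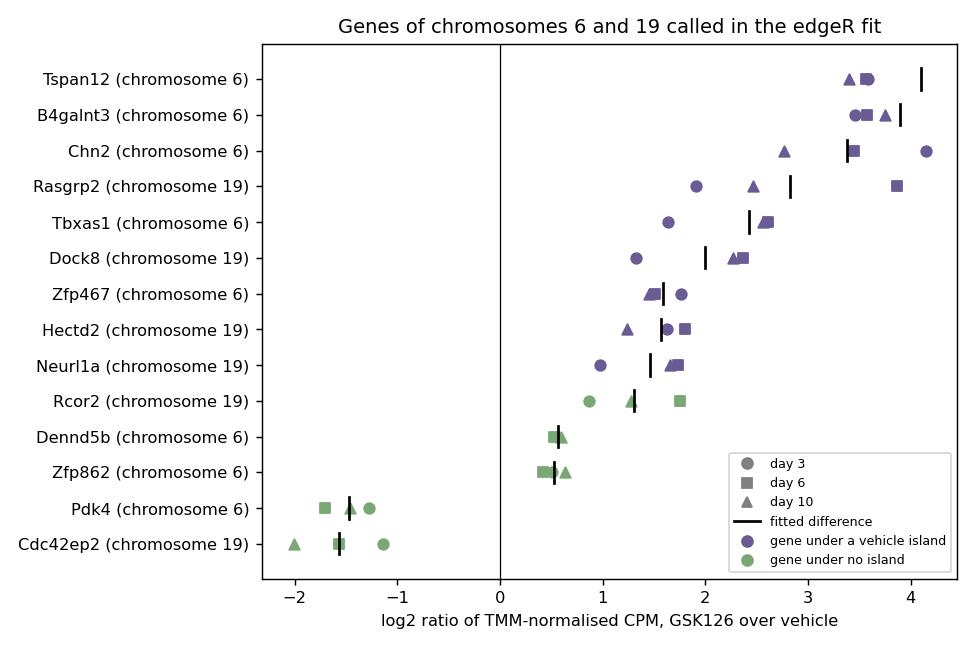
Points are the log2 ratio of GSK126 to vehicle CPM on day 3 (circle), 6 (square) and 10 (triangle), with a prior count of 2, and bars are the fitted log2 difference over the 3 days, for the 14 genes of chromosomes 6 and 19 called by edgeR. The 9 genes under vehicle islands (purple) lie between 0.98 and 4.15, and Pdk4 and Cdc42ep2 (green) are below 0 on each day.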

How the data were processed

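The regions, gene lists and tests were chosen with earlier results of these data known. Per the submitters' processing notes the tools were CASAVA 1.9, BWA 0.5.9, SICER 1.1, TopHat2 2.0.6 and HTSeq 0.5.3p9, and the build was mm10. SICER settings and the annotation release were not given in the sources used here. Per island and treatment the authors deposited read counts of ChIP and of input, p-values raw and adjusted, and a fold over input (a scaled ratio), read here by the layout that SICER writes. The authors also deposited gene counts, all even, and RPKM values per library, without strand. Counts are printed and entered the fits as deposited. Why all are even, and what that means for counting error in low genes, was not tested.

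Island ratios, densities and overlaps were computed from the read counts. With no genome at hand, a chromosome's length was the end of its last island or gene, the RefSeq gene table of GRCm38.p6 included. The 51 gene rows spanning over 2.5 Mb, 1 of them on chromosome 19, were left out of overlaps, a choice made after seeing the data. A gene was under an island if they shared 1 base. Gene levels are medians of log2(RPKM + 0.1) over genes with a mean CPM of at least 1.

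The gene test was edgeR's quasi-likelihood method (edgeR 4.0.16, R 4.3.3, trended dispersion, TMM, filterByExpr, day and treatment, Benjamini-Hochberg), with 2 residual degrees of freedom and a coefficient of variation of 14.8%. Each SE was obtained from the fitted difference and its F statistic (difference over root F). Nothing in the labels calls the libraries independent cultures. With 1 library per treatment and day, the p-values set the treatment difference against its variation between days, not against a spread between replicates. A response that changes over days, as after the withdrawal on day 6, enters that variation. The code was tested on simulated counts. Of the called genes, those with mean log2 CPM of at least 1, 1 row and 1 sign on all days were named, besides list members and genes under the 5 longest and 5 highest-ratio islands per chromosome and list. Of 1997 gene rows on chromosomes 6 and 19, 1794 matched a RefSeq symbol.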

Additional observations from a re-analysis of the deposited data

How the results depend on the processing

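No paired analysis was possible because the labels give no replicate numbers, apart from the day term of the fit, which compares the treatments within each day. With an adjusted p of at most 1e-10, 1780 vehicle and 1573 GSK126 islands of chromosomes 6 and 19 were left, covering 7.54% and 9.22%. With a fold of at least 2, 3808 and 1584 were left, covering 9.93% and 6.20%, so that GSK126 then covered less than vehicle, and chromosome 6 then ranked 3 with GSK126 (6.12%), behind chromosome 17 (6.33%). Input density and ratio against the other autosomes kept their direction under each alternative run, with density ratios of 1.13 to 1.40. Vehicle islands met by GSK126 islands numbered 4767 at 1 base and 4275 at 50% of the vehicle island. By gene span 566 genes lay under vehicle and 605 under GSK126 islands. With either gene end within 2 kb of an island it was 615 and 638.

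The gene level of chromosome 6 was 0.39 with a pseudocount of 1 and -0.28 over all genes with a count. That of chromosome 19 was 0.47 at a mean CPM of at least 10, 0.50 with a pseudocount of 1 and 0.82 over all genes with a count.

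On chromosomes 6 and 19 DESeq2 1.42.0 called 75 genes higher and 52 lower, beside 688 and 635 over all genes. Without a filter on low counts edgeR called 13 higher and 6 lower, beside 195 and 63 over all genes. Without day 3, edgeR called 18 higher and 10 lower, without day 6 it called 0 higher and 1 lower, and without day 10 it called 0 and 0. Over all genes it called 202 and 106, 18 and 1, and 4 and 0 in the same fits. The fitted differences stayed near their size (Tspan12 4.10, and 4.36 without day 6; Hectd2 1.56, and 1.73 without day 10), and these fits have fewer libraries and residual degrees of freedom. Without the day term edgeR called 0 and 0, and also 0 and 0 over all genes. At an unadjusted edgeR p below 0.05 the main fit had 151 higher and 111 lower genes on these chromosomes. Over all genes it had 1414 and 1399. On these chromosomes it was 146 and 95 without day 3, 86 and 77 without day 6, and 108 and 71 without day 10. For the fit without the day term it was 59 and 34. No called gene reversed its direction. Where a value moved, the cause was not tested.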
